A study of Rattus norvegicus with 12 samples.

Results

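The dystrophin complex and the costamere tie the contractile machinery of a muscle cell to its membrane and to the matrix outside. The genes examined here were chosen by name, with earlier results of these data known. They were Dmd, Utrn, Dag1, Sgca, Sgcb, Sgcd, Vcl and Tln2, 8 in all. Of these, 7 had rows, 10 transcript rows together, among 17301 genes; Tln2 was not analysed here. All 7 were above 0 in every sample, so that none was lost to the filter on low values, and they are among 10950 genes tested.

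The cells were adult rat ventricular myocytes (ARVMs), the contractile cells of the heart, isolated from male Sprague Dawley rats and kept in serum-free culture. In 6 samples, called Ad-h-NR4A2, a virus brought in the gene of the human nuclear receptor NR4A2 at full length, driven by the viral CMV promoter. The other 6, called Ad-GFP, were controls whose virus brought in GFP instead. Both groups received 50 MOI, and RNA was collected after 48 h, so that neither group shows untransduced cells. The samples of each group are numbered 24 to 29 in the labels, and same-numbered samples are treated as pairs where stated. The question behind the comparison is which transcripts change when NR4A2 is raised in cardiomyocytes.

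Values are FPKM, the fragments on a transcript per kilobase of its length and relative to all fragments mapped in that sample, so that levels of different genes can be set side by side. The depth recovered from the low values was 18700000 to 27800000 fragments in Ad-GFP samples and 21600000 to 27100000 in Ad-h-NR4A2 samples. The row for rat Nr4a2 held 0.626 to 1.40 FPKM in Ad-GFP and 445 to 592 FPKM in Ad-h-NR4A2 samples, where fragments of the human transgene and of the rat gene cannot be told apart. Summed FPKM of 6 cardiomyocyte markers ran from 17688 to 22842 in Ad-GFP and from 15658 to 19261 in Ad-h-NR4A2 samples, and 4 of the 6 were lower with NR4A2 (Myh6, Myh7, Tnnt2 and Ryr2). Sums of 6 fibroblast markers, among which Col1a2 was listed at 0 throughout, were 6.99 to 25.3 and 4.97 to 24.04 FPKM. The corresponding sums were 7.04 to 20.2 and 6.83 to 16.5 for 3 smooth muscle markers, 4.48 to 15.3 and 3.40 to 14.1 for 3 endothelial markers, and 0.280 to 1.36 and 0.371 to 1.31 for 3 macrophage and leukocyte markers. Of these noncardiomyocyte markers, 1 passed the test (Myh11, lower with NR4A2). In such bulk samples, fewer cells of a type and less RNA per cell cannot be told apart. The part of these marker differences in the results that follow was not tested.

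As background, dystrophin is a long rod-shaped protein that binds actin filaments at one end and the membrane protein dystroglycan at the other, and utrophin is its close relative. Dystroglycan spans the membrane as a receptor for laminin, and the sarcoglycans form a group of membrane proteins beside it. Vinculin and the talins belong to the integrin-based adhesions of the costamere, the rib-like structure that lines up with the Z disks. Loss of dystrophin or of a sarcoglycan causes muscular dystrophy, often with cardiomyopathy.

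The promoter windows of the sarcoglycan genes are shown because these genes changed in opposite directions, and those of Dmd because the gene has starts far apart. RefSeq windows in build GRCr8 were matched for 7 of the 8 genes, Tln2 included, with 3 windows for Dmd and 9 in all; Dag1 had no match. Each window holds the 250 bases before the start, printed 5′ to 3′ along the gene, with each CG dinucleotide in capitals.
Sgcd, chr10:32254941-32255190 (minus strand): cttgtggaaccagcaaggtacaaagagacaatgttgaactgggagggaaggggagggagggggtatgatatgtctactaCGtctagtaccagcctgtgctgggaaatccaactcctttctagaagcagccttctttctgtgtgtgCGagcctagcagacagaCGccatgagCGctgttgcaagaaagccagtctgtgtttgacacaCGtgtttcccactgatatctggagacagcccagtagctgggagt
Sgca, chr10:80416076-80416325 (minus strand): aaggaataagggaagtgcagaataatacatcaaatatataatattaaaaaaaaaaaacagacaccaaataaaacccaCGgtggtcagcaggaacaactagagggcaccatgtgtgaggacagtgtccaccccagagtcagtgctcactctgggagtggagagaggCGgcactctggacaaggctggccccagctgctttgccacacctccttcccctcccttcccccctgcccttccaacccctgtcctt
Sgcb, chr14:34917413-34917662 (plus strand): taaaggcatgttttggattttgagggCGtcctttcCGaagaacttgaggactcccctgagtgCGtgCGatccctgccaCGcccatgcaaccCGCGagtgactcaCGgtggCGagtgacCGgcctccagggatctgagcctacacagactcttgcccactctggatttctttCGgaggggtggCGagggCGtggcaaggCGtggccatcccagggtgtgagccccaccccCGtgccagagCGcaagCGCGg
Dmd upstream start, chrX:51205836-51206085 (plus strand): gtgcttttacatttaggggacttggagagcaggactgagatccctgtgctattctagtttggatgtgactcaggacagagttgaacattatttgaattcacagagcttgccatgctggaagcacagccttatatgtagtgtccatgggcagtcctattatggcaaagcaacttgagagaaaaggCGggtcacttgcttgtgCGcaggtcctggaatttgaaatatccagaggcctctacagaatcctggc
Dmd downstream start, chrX:53278763-53279012 (plus strand): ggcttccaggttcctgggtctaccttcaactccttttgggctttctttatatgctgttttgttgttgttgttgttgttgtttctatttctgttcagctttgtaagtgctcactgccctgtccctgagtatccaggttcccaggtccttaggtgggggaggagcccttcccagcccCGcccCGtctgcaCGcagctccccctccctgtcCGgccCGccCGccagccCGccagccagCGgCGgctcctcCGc
On both strands, these windows and the other 4 were searched for the NBRE octamer AAAGGTCA, which NR4A receptors bind as monomers, and for the hexamer AGGTCA, which lies within it. Neither was found in any of the 9 windows. Over all 33469 RefSeq windows of this length, 1.24% held the octamer and 14.1% the hexamer. The absence says only that these letters are not in these windows. CG dinucleotides numbered 5 in the window of Sgcd, 2 in that of Sgca and 18 in that of Sgcb, against a median of 5 over all windows. The upstream Dmd window held 2 and the downstream one 10, and the remaining Dmd window began 31 bases further on.

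Of the 7 genes, 5 were lower and 2 were higher in Ad-h-NR4A2 than in Ad-GFP samples. Sgcd, which encodes δ-sarcoglycan, rose by 71.6% and was the only one past the 1.5-fold limit, while Sgca and Sgcb, which encode its partners α- and β-sarcoglycan, fell by 20.2% and 17.5%. Dmd fell by 29.3%, Utrn by 20.7% and Vcl by 10.9%, and Dag1 rose by 12.3%. Each of these directions was seen in 6 of 6 same-numbered pairs. At an adjusted p below 0.05 (limma with Benjamini-Hochberg adjustment over all genes tested), 19.3% of all 10950 genes were called higher and 21.7% lower. With the 1.5-fold limit on the ratio of mean FPKM, 7.94% were called higher and 7.24% lower, against 1 and 0 of the 7. The groups did not overlap, with every Ad-h-NR4A2 sample higher, in 10.9% of all genes, and with every one lower in 10.6%, against 1 and 3 of the 7. The median log2 fold change of FPKM + 0.1 was -0.28 over the 7 genes and -0.02 over all genes tested. The median of its absolute size was 0.32 and 0.20. As the 7 genes were chosen with earlier results of these data known, these counts and medians only describe them.

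**Figure D1:**
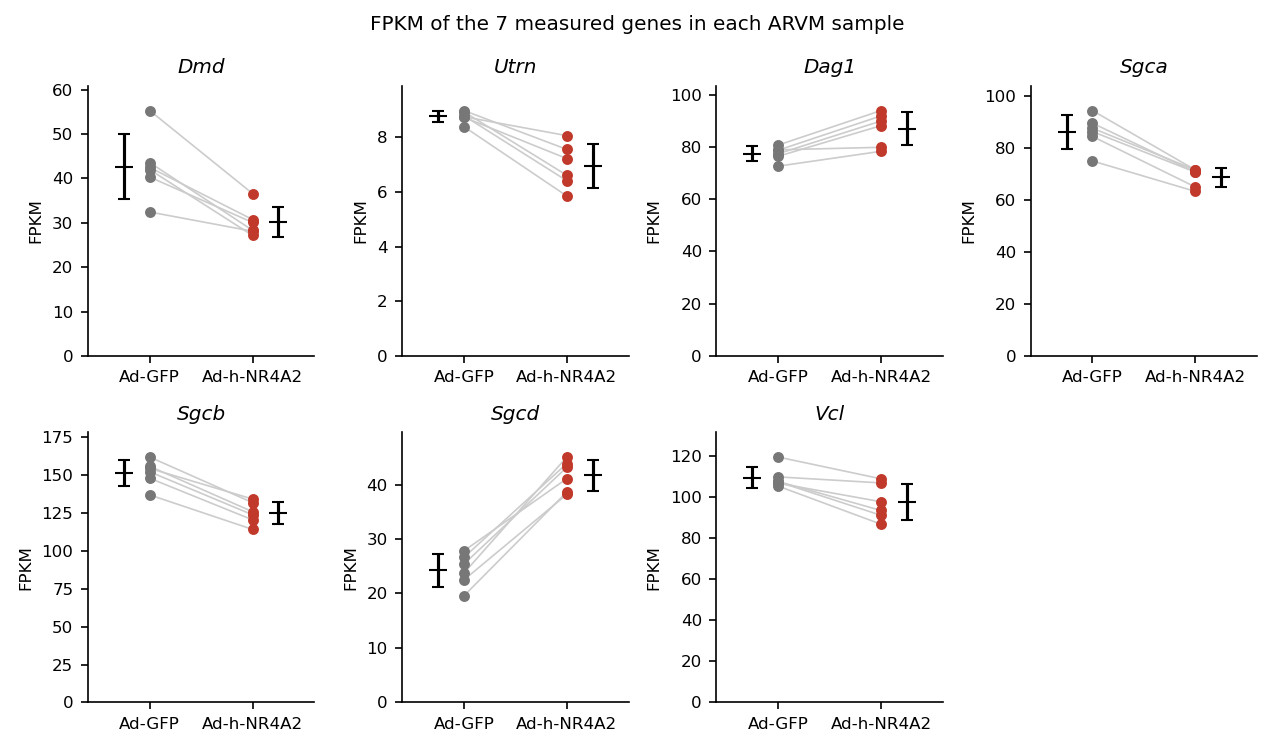
FPKM (y axis, from 0) of each of the 7 measured genes in 6 Ad-GFP (gray) and 6 Ad-h-NR4A2 samples (red), with lines joining same-numbered samples and black marks giving mean ± SD. All lines slope up for Sgcd and Dag1 and down for Dmd, Utrn, Sgca, Sgcb and Vcl, and the groups share no values in Utrn, Sgca, Sgcb and Sgcd.

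Dystrophin itself was represented by 3 short Dmd transcripts of 1990 to 2038 nucleotides, all within chrX:53540738-53697914 of Rn5. They cover 157177 bp at the 3′ end of the gene, while the upstream and downstream windows printed above lie 2072927 bp apart in GRCr8, so that no row begins at the upstream start. Fragments of full-length muscle dystrophin mRNA that fall on these shared exons cannot be told apart from fragments of the short products, and the FPKM cannot be read as the level of either. The main row, NM_012698, ran from 32.4 to 55.3 FPKM in Ad-GFP samples, with a median of 42.2. In Ad-h-NR4A2 samples it ran from 27.2 to 36.6 FPKM, with a median of 29.2. The ranges overlapped because Ad-GFP sample 29 was the lowest of its group and Ad-h-NR4A2 sample 24 the highest of its own. Means were 42.7 ± 7.36 and 30.2 ± 3.42 FPKM (SD, n = 6 each), which is a log2 difference of -0.49 with an SE of 0.11 and an adjusted p of 0.00241 in limma. The exact permutation test over samples gave a two-sided p = 0.00433.

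The next Dmd row, NM_001005246, fell alongside it, from 31.8 ± 4.56 to 23.6 ± 3.54 FPKM (exact permutation p = 0.00866). NM_001005244 was at 0.1 FPKM or more in 5 of 12 samples and below 0.001 in the other 7. The share of NM_012698 in the Dmd sum was 57.0% ± 1.75 in Ad-GFP and 56.0% ± 1.84 in Ad-h-NR4A2 samples. No shift in the 4 transcript shares tested within Dmd and Sgcd passed (exact permutation, adjusted p from 0.557 to 0.931). Summed over its transcripts, Dmd was at 74.8 ± 11.9 and 53.9 ± 6.66 FPKM, a log2 difference of -0.46 (SE 0.10).

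Utrophin differed in another way. Its transcript (Utrn, NM_013070, chr1:8098759-8608676 of Rn5, 10699 nucleotides) was the least abundant of the 7 per length and had the lowest coefficient of variation in Ad-GFP samples, which ran from 8.38 to 8.97 FPKM with a median of 8.76. The Ad-h-NR4A2 samples ran from 5.85 to 8.05 FPKM, with a median of 6.91. No Ad-h-NR4A2 sample reached the lowest Ad-GFP sample. That coefficient was 2.38% in Ad-GFP and 11.7% in Ad-h-NR4A2 samples, and at 1460 to 2630 fragments per sample counting alone gives up to 2.62%. The means, 8.76 ± 0.208 and 6.95 ± 0.810 FPKM, differed by -0.34 on the log2 scale (SE 0.08; adjusted p = 0.00284). The exact permutation p of 0.00216 is the smallest that 6 against 6 samples allow.

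The Utrn row was set against the main Dmd row as a ratio within each sample, in which scaling cancels. Since that Dmd row cannot be read as the level of full-length dystrophin mRNA, the ratio is not one of utrophin to dystrophin. The log2 ratio of Utrn to Dmd was -2.26 ± 0.26 in Ad-GFP and -2.10 ± 0.25 in Ad-h-NR4A2 samples. It was higher in 5 of 6 pairs, by 0.15 on average, and the groups overlapped (unpaired exact permutation p = 0.316). With same-numbered samples paired, a permutation test that flips the sign of each pair gave p = 0.0938. Single samples moved this difference, to 0.07 without Ad-GFP sample 24 (exact permutation p = 0.608), to 0.23 without Ad-GFP sample 29 (exact permutation p = 0.0996) and to 0.23 without Ad-h-NR4A2 sample 24 (exact permutation p = 0.139). These p-values are unpaired, and leaving out 1 sample of a pair shifts the mean of its group alone. Sample 24 had the lowest ratio of FPKM in both groups (0.160 in Ad-GFP and 0.177 in Ad-h-NR4A2). Neither the unpaired nor the paired test of all samples was below 0.05, which does not show that the ratio stayed the same.

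Dystroglycan, the receptor to which both proteins bind, moved the opposite way. Dag1 (NM_053697, chr8:116334176-116346857 of Rn5) was at 72.6 to 80.7 FPKM in Ad-GFP samples, with a median of 78.0. It was at 78.3 to 93.9 FPKM in Ad-h-NR4A2 samples, with a median of 89.0. The 4 highest values were Ad-h-NR4A2 samples, and the other two of that group lay within the Ad-GFP range. Means were 77.4 ± 2.78 and 87.0 ± 6.45 FPKM, or 0.16 on the log2 scale (SE 0.05; adjusted p = 0.0176; exact permutation p = 0.0152). On the TPM scale, on which every sample sums to the same total, the value was 0.15 and the adjusted p 0.0579, so that the call was lost.

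The 3 sarcoglycans among the 7 did not change together. Sgca (NM_001107039, chr10:82588479-82602338 of Rn5) was at 74.9 to 94.3 FPKM in Ad-GFP samples, median 86.8. All Ad-h-NR4A2 samples were below that range, at 63.2 to 71.5 FPKM, median 70.6. On the log2 scale it changed by -0.32 (SE 0.05; adjusted p = 3.70e-04; exact permutation p = 0.00216). Sgcb (NM_001191068, chr14:36936100-36951529 of Rn5), the most abundant of the 7 per length, was at 137 to 162 FPKM in Ad-GFP samples, median 153. Its Ad-h-NR4A2 samples were again all lower, at 114 to 134 FPKM, median 125. This came to -0.28 on the log2 scale (SE 0.05; adjusted p = 5.16e-04; exact permutation p = 0.00216).

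Sgcd (NM_001134826, chr10:31878904-32285036 of Rn5) was the least abundant of these sarcoglycans in Ad-GFP samples, at 19.6 to 27.8 FPKM with a median of 24.6. In Ad-h-NR4A2 samples it was at 38.2 to 45.1 FPKM with a median of 42.1. The groups were far apart, with the lowest Ad-h-NR4A2 sample above the highest Ad-GFP sample, and the ratio within pairs ran from 1.48 to 1.97. Means were 24.3 ± 3.00 and 41.7 ± 2.83 FPKM, a ratio of 1.72. On the log2 scale the rise was 0.78 (SE 0.08; adjusted p = 4.51e-06; exact permutation p = 0.00216). The other Sgcd row, NM_001109029, was below 0.001 FPKM in 8 of 12 samples, so that the rise lay in NM_001134826.

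Vinculin, the actin-binding protein of the costamere, gave the smallest fall. Vcl (NM_001107248, chr15:3433521-3522277 of Rn5) was at 105 to 119 FPKM in Ad-GFP samples, median 107. It was at 86.6 to 109 FPKM in Ad-h-NR4A2 samples, median 95.4, and the groups overlapped. Means were 109 ± 5.14 and 97.3 ± 8.81 FPKM, with a log2 difference of -0.17 (SE 0.06; adjusted p = 0.0299; exact permutation p = 0.0303). The call was lost without Ad-GFP sample 26 (log2 fold change -0.14, adjusted p = 0.0696) and without Ad-h-NR4A2 sample 25, 27 or 29 (-0.14, -0.15 and -0.16, with adjusted p of 0.0662, 0.0669 and 0.0612). It was also lost with no filter on low values (adjusted p = 0.0555). Talin 1, the partner of vinculin in these adhesions (Tln1), was at 31.5 ± 7.45 and 29.6 ± 7.61 FPKM and did not pass the test (adjusted p = 0.667).

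**Figure D2:**
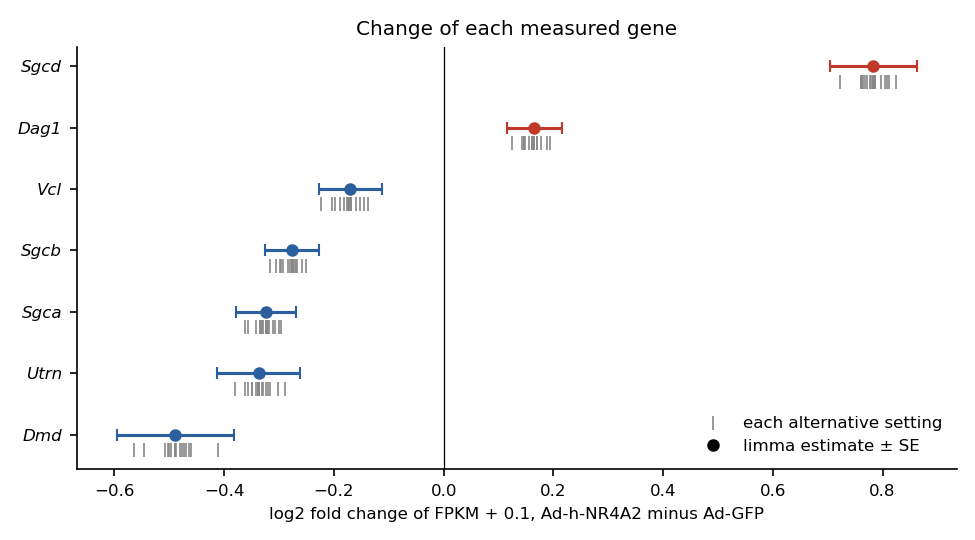
Log2 fold change of FPKM + 0.1, Ad-h-NR4A2 minus Ad-GFP (x axis), for the 7 measured genes (y axis), with points and bars for the limma estimate ± SE and gray ticks for each of 21 alternative settings. No tick crosses 0, and the ticks run from 0.72 to 0.82 for Sgcd and from -0.22 to -0.14 for Vcl.

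Ratios of genes within a sample show the unequal changes without any scaling between samples. For all 21 pairs of the 7 genes, which were compared after the values had been seen, the two-sided exact permutation test passed in 12 after Benjamini-Hochberg adjustment over the 21. All 6 ratios with Sgcd rose, from 1.54-fold against Dag1 to 2.42-fold against Dmd (adjusted p = 0.00413 in each, the smallest reached). Their direction follows from the rise of Sgcd, the largest of the 7. Against the other sarcoglycans, Sgcd rose 2.15-fold relative to Sgca and 2.09-fold relative to Sgcb. The log2 ratio of Sgcd to Dmd was -0.80 ± 0.23 in Ad-GFP and 0.47 ± 0.20 in Ad-h-NR4A2 samples, so that for these rows the gene with the higher FPKM changed.

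Dag1 rose against each of the 5 genes that fell, a direction that follows from its own rise and their falls. Tests of these ratios use the same samples and are not independent of those of the single genes. The log2 difference of the ratio was -0.65 for Dmd to Dag1, -0.50 for Utrn to Dag1, 0.49 for Dag1 to Sgca, 0.44 for Dag1 to Sgcb and 0.33 for Dag1 to Vcl, with no overlap of the groups in any (exact permutation, adjusted p = 0.00413 in each). Among the 10 ratios of the 5 genes that fell, 1 passed, that of Dmd to Vcl (log2 difference -0.32, exact permutation adjusted p = 0.0341). The ratio of Sgca to Sgcb had a log2 value of -0.82 ± 0.05 and -0.86 ± 0.07, a difference of -0.05 (exact permutation adjusted p = 0.264). With same-numbered samples paired, in a replicate block with sign-flip permutation, 14 ratios passed at an adjusted p of 0.0469, the smallest that 6 pairs gave here. The 12 were among them, and the others were Sgca to Vcl and Sgcb to Vcl, each lower in 6 of 6 pairs.

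**Figure D3:**
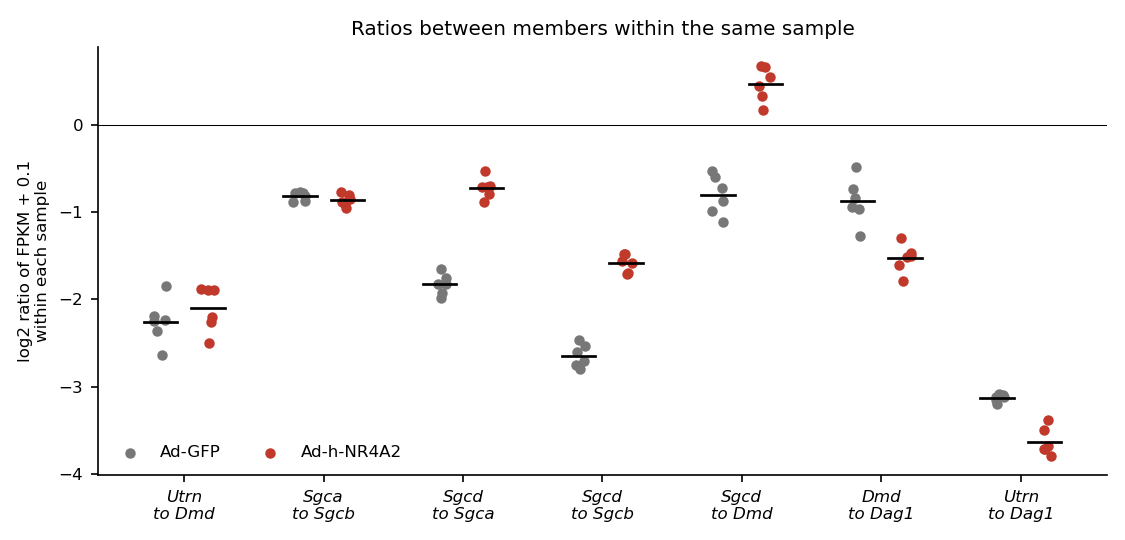
Log2 ratio of FPKM + 0.1 within each sample (y axis) for 7 of the 21 pairs (x axis), with gray points for Ad-GFP, red points for Ad-h-NR4A2 samples and black bars for the means. Both groups overlap in Utrn to Dmd and in Sgca to Sgcb, and they are apart in the other 5 ratios, those with Sgcd rising and those of Dmd and Utrn to Dag1 falling.

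By level per length, the order of mean FPKM in Ad-GFP samples was Sgcb, Vcl, Sgca, Dag1, Dmd, Sgcd and Utrn. Neighbours in this order had separate ranges, except Sgca and Dag1, where Sgca was higher in 5 of 6 samples. In Ad-h-NR4A2 samples the order was Sgcb, Vcl, Dag1, Sgca, Sgcd, Dmd and Utrn, with overlapping ranges for Vcl and Dag1. The place of Dmd depends on its transcripts, since their sum was at 53.9 FPKM in Ad-h-NR4A2 samples, above Sgcd.

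After group means were removed, log2 values of Sgca and Sgcb varied together over the 12 samples (r = 0.79), as did those of Dag1 and Vcl (r = 0.70), of Sgcb and Sgcd (r = 0.62) and of Sgca and Sgcd (r = 0.59). Over the 21 pairs r ran from -0.19, for Dmd and Utrn, to 0.79, with a median of 0.21. These are descriptions, and genes of the same library share its depth and its cells. Deviations of same-numbered samples also correlated across genes (r from 0.35 to 0.62), so the 12 samples are not 12 independent values. The 5 genes whose residual pattern was most like that of Dmd, out of 8977, were Dclre1a (r = 0.96), Zbtb43, Tor1aip1, Zfp846 and Pcid2 (r = 0.94). Picking the highest of 8977 values raises r by itself, and no chance level was computed. Sample 24 held the highest Dmd value in both groups (55.3 FPKM in Ad-GFP and 36.6 FPKM in Ad-h-NR4A2).

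Beyond these genes, 83 genes in 5 lists of the same structures were examined, of which 67 were tested, with 9 higher, 24 lower and 34 not past the test. The shares to read them against are those of all genes, 19.3% and 21.7%. These lists too were chosen with earlier results of these data known. The remaining dystrophin complex was mixed, with 1 of 8 tested members higher, 3 lower and a median log2 fold change of -0.08. Sntb1 and Sntb2 encode syntrophins, adaptor proteins that bind dystrophin. Sntb1 fell from 32.0 ± 3.34 to 15.6 ± 2.07 FPKM (log2 fold change -1.04, adjusted p = 1.13e-06) and Sntb2 from 2.09 ± 0.336 to 1.13 ± 0.228 FPKM (-0.84). Dtnb, a dystrobrevin, rose from 0.674 to 1.09 FPKM (0.62). Sspn (sarcospan), Sgce and Cav3 were among those that did not pass, and Sgcz and Nos1 were listed at 0 in at least 1 sample and were not tested.

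Among the matrix ligands of dystroglycan and the integrins, 0 of 5 tested genes were higher and 3 were lower, with a median of -0.32. Of the 8 genes on this list, Lama2, Lamb1 and Hspg2 were not analysed here, so that the counts do not cover them. The laminin chain gene Lamb2 fell from 82.8 ± 7.87 to 54.9 ± 6.04 FPKM (log2 fold change -0.59, adjusted p = 4.44e-05), and Lama5 (-0.53) and Lama4 (-0.32) were lower. Agrn, which encodes agrin, did not pass (0.16, adjusted p = 0.204).

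In the integrin and talin adhesion list, 3 of 21 tested genes were higher and 11 lower, with a median of -0.17. Lims1, an adaptor of integrin-linked kinase, fell from 61.3 ± 3.17 to 39.2 ± 2.75 FPKM (-0.65, adjusted p = 5.62e-07). The fibronectin receptor subunit gene Itga5 fell from 13.8 ± 0.915 to 7.27 ± 0.764 FPKM (-0.91, adjusted p = 5.79e-07). Tns1 (tensin 1) fell from 181 to 127 FPKM (-0.51) and Ptk2 (focal adhesion kinase) from 24.2 to 18.9 FPKM (-0.36). The 3 that rose were Itga7, Lims2 and Sorbs2.

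Of the proteins that link the costamere to the cytoskeleton, 3 of 16 tested genes were higher and 6 lower, with a median of -0.20. Flnc (filamin C) fell from 203 FPKM (167 to 239) to 92.7 FPKM (67.2 to 125; -1.16, adjusted p = 4.70e-05), and Sync, which encodes a partner of desmin, from 20.1 to 10.7 FPKM (-0.93). Ank3 fell as well (-0.76). Sptan1 (αII-spectrin) rose from 77.5 ± 8.45 to 173 ± 46.8 FPKM (1.12, adjusted p = 3.56e-05), with both groups apart and Ad-h-NR4A2 samples spread from 117 to 255 FPKM.

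The last list holds enzymes behind the laminin-binding sugars of dystroglycan, not all of which attach sugars to it. Of 17 tested genes, 2 were higher and 1 lower, with 14 not past the test and a median of 0.01. Gmppb, which makes the mannose donor, rose from 6.23 ± 0.561 to 11.7 ± 1.07 FPKM (0.90, adjusted p = 9.85e-07). Large, a glycosyltransferase, rose from 4.22 to 5.70 FPKM (0.42), and Pomgnt1 fell by 0.17 on the log2 scale. Dpm1 was at 26.7 and 29.1 FPKM and did not pass (adjusted p = 0.0755).

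**Figure D4:**
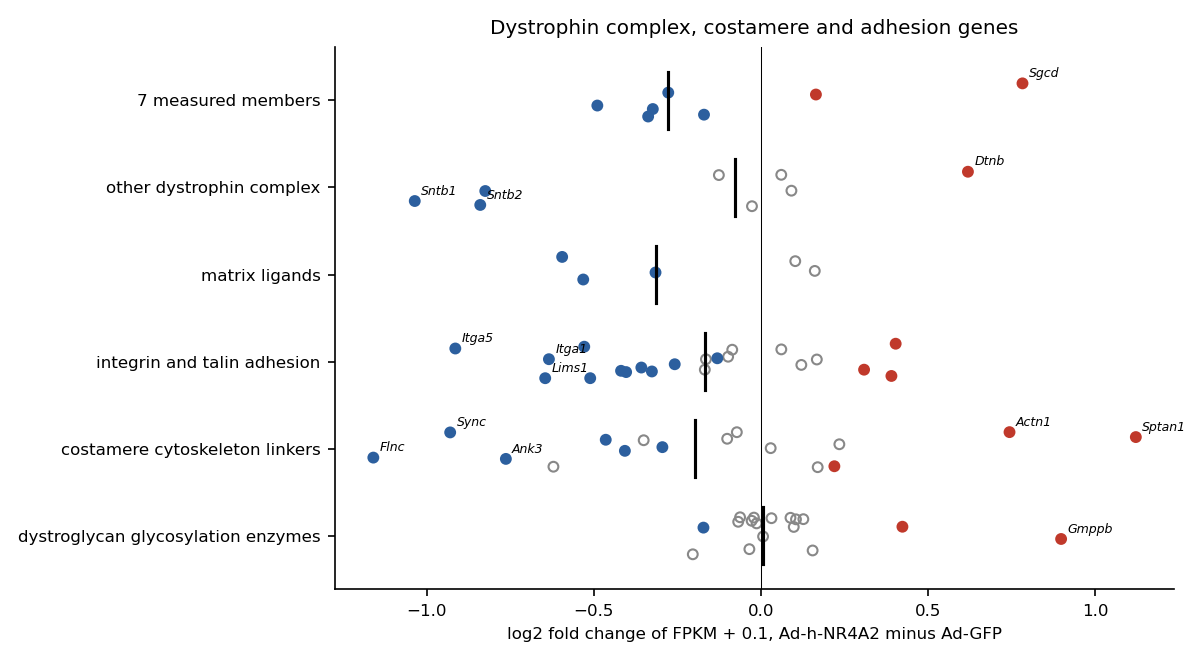
Log2 fold change of FPKM + 0.1, Ad-h-NR4A2 minus Ad-GFP (x axis), for the 7 measured genes and 5 wider lists (y axis), where each point is a gene, filled red (higher) or blue (lower) at an adjusted p below 0.05 and open otherwise, and black bars are medians. Most filled points past 0.6 in size carry their symbol, with Flnc and Sntb1 farthest to the left and Sptan1 farthest to the right.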

How the data were processed

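RNA sequencing of 6 Ad-GFP and 6 Ad-h-NR4A2 samples of ARVMs was analysed from the deposited FPKM of RefSeq transcripts, which the authors calculated with Cufflinks after alignment of stranded paired-end reads to Rn5 with STAR. Groups came from the sample labels. For a gene with several transcripts, the one highest in mean FPKM stood for it. Genes listed at 0 in any of the 12 samples were left out (10950 remained), and limma 3.58.1 in R 4.3.3 (eBayes with trend) was applied to log2(FPKM + 0.1), two-sided, unpaired, with Benjamini-Hochberg adjustment; the pseudocount understates changes of low genes. Single values were compared by an exact permutation test over every assignment of 6 and 6 samples. Scripts were tested on simulated data, and Python 3.11.15 with NumPy 2.4.6, pandas 2.3.3 and Matplotlib 3.10.9 made the tables and plots.

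Sample numbers were taken as pairs because deviations of same-numbered samples correlated (r from 0.35 to 0.62, mean 0.51); the labels do not say what a number stands for. Depth was recovered from values of at most 6 fragments on transcripts of at least 800 nucleotides, whole within 0.05; it covers counting error only and is given as fragments only for genes with 1 transcript. The members and gene lists were chosen with earlier results of these data known. All members were named, and up to 4 genes per wider list with the smallest adjusted p; some genes of these lists are counted but not reported here by name, and further genes named in a list were chosen after their values were seen. Alternatives were pseudocounts, filters, quantile normalization, the TPM scale, limma without trend, summed transcripts, the replicate block and leaving out each sample. Loci are 1-based.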

Additional observations from a re-analysis of the deposited data

Results flagged for a closer look

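In Vcl, Ad-GFP sample 26 stood apart from its group, at 119 FPKM against a next highest of 110 and a lowest of 105. Without this sample the log2 fold change of Vcl was -0.14 (limma adjusted p = 0.0696), and the call was lost. Chance flags about 1 in 20 groups, and 7 genes were examined in both groups.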

How the results depend on the processing

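All 7 genes kept their direction under the 21 alternatives run for each. The highest adjusted p over these was 0.00936 for Dmd, 0.00683 for Utrn, 0.00122 for Sgca, 0.00177 for Sgcb and 5.34e-05 for Sgcd. Dag1 lost its call on the TPM scale and Vcl in 5 settings, as given with their values; the cause was not tested. With the replicate block, 7 of 7 genes passed (as without it) and 48 of the 67 wider genes tested passed, against 33 without it; over all genes 6509 passed, against 4484. The share of NM_001005244 in Dmd differed by 0.03 percentage points and changed sign with samples left out, from -0.10 to 0.12. For the 20 genes with the smallest adjusted p in the wider lists, up to 4 per list, 417 results stayed on their side of the threshold, and Dpm1 passed with the replicate block (adjusted p = 0.0198) and without Ad-GFP sample 28 (0.0127). The planned ratio of Tln2 to Tln1 was not run, since Tln2 was not analysed here. The values of the 2 minor transcripts were near 0 in most samples, and the cause of this was not tested.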
